A study of Mus musculus with 16 samples.

Results

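Hes1, Dll4, Notch1 and Notch2 are 4 of the 14829 genes in a count table of mouse hematopoietic stem cells, and each was found in it by its gene symbol. Hes1 and Dll4 were chosen by their rise after dmPGE2 in these same libraries, so their dmPGE2 changes are given as a description, without a test. Notch1 and Notch2 are the receptors set beside them. The libraries came from 8 mice, 4 labelled young and 4 labelled old, with no strain, sex or age in months given in the sources used here. Bone marrow of each mouse was divided in 2: one portion was held for 1 h at 37 °C with dmPGE2, a dimethyl analogue of prostaglandin E2 that resists breakdown, and the other with vehicle, and stem cells were then sorted. That gives 4 libraries in each of 4 groups (young vehicle, young dmPGE2, old vehicle, old dmPGE2), 16 in all, with 12960704 to 19226963 counted reads each. All cells, vehicle cells included, went through the same incubation and sort, with sort markers that the sources used here do not name. The sample descriptions carry 2 dates, called date 1 (mice 477 to 480) and date 2 (mice 483 to 486) here, with 2 young and 2 old mice on each. Which step the dates mark is not stated.

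Notch signalling passes between touching cells. A ligand of the Delta-like or Jagged type on one cell binds a Notch receptor on its neighbour, the receptor is cut by ADAM10 and then by gamma-secretase, and its intracellular part enters the nucleus, where it joins the DNA-binding protein RBPJ and a Mastermind coactivator to turn on genes such as the Hes and Hey repressors. Among blood cells the pathway is best known for driving T cell fate, and Dll4 is known as a ligand that endothelial cells present. Hes1 is a basic helix-loop-helix repressor that shuts down its own promoter through N-boxes and that other signals than Notch can also induce.

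In the deposited annotation (mm10), Hes1 spans chr16:30065357-30067796 on the plus strand with 1451 exonic bases. Dll4 spans chr2:119325784-119335666 on the plus strand with 3451 exonic bases in 11 exon blocks. Notch1 lies at chr2:26457902-26503822 on the minus strand and Notch2 at chr3:98013538-98150367 on the plus strand, each with 34 exon blocks. Dll4 shares 217 exonic bases with the antisense gene Gm14207, which held 9 to 80 reads a library against 31 to 530 for Dll4. The sources used here do not say whether counting used strand, and reads of that stretch may belong to either gene. The other 3 genes shared no exonic base with another gene of the table.

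RefSeq promoter windows of 300 bases (GRCm38.p6) were matched for 3 of the 4 genes: Dll4, Notch1 and Notch2. The windows of Dll4 and of Nrarp are shown, Dll4 because it is one of the pair chosen by its rise, and Nrarp, a feedback inhibitor of Notch signalling, because its levels were among the 5 most like those of Hes1 by the correlation given at the end. Capitals mark matches to the N-box bound by Hes proteins (CACNAG) and to the core of the cyclic AMP response element (TGACG), on either strand.
Dll4, chr2:119325534-119325833, plus strand: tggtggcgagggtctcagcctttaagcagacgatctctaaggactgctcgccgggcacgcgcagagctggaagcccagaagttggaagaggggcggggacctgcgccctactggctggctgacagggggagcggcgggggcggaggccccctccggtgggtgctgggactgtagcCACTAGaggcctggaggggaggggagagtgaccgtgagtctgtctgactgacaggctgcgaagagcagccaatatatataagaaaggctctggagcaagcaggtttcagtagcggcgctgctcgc
Nrarp, chr2:25180508-25180807, plus strand: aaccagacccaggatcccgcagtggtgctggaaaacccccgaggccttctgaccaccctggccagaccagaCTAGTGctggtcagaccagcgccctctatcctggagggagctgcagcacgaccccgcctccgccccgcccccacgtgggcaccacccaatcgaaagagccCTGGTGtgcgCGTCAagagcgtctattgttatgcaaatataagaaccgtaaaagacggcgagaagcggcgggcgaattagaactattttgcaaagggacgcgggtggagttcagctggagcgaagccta
The Dll4 window held 1 N-box, at base 176. The Nrarp window held N-boxes at bases 72 and 172 and an element core at base 182, all read on the minus strand. Neither window, nor those of Notch1 and Notch2, held the RBPJ core TGGGAA or the full element TGACGTCA. Notch1 had 3 N-box matches, 2 of which overlap, and Notch2 had 1. Such letters are common: 42.5% of 32851 promoter windows held an N-box, 25.6% an RBPJ core, 20.8% an element core and 1.79% a full element, and a match or its absence describes these letters only.

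The 16 libraries carried the markers of stem cells that their label names. All 14 genes of a stem cell list were in the table and none was at 0, with summed levels of 4327 to 6821 CPM (the usual library-scaled read count of a gene, here with TMM-adjusted library sizes). Stem cell sums were lower on date 2 within each age (young 5594 to 6050 CPM on date 1 and 4327 to 4670 CPM on date 2, old 5980 to 6821 and 5471 to 5712 CPM). The marker lists of 3 other cell types were higher on date 2 without overlap: summed neutrophil markers were 8.08 to 20.3 CPM on date 1 and 787 to 1502 CPM on date 2, myeloid progenitor markers 165 to 352 and 1525 to 3632 CPM, and T cell markers 13 to 22.1 and 89.5 to 151 CPM. Erythroid (1656 to 2072 and 2063 to 3296 CPM), B cell, stromal and endothelial sums overlapped between the dates, the endothelial ones at lower values on date 2 (1456 to 2402 and 1044 to 2088 CPM). In bulk RNA, fewer cells of a type and less RNA per cell cannot be told apart. The part of these cells in the values below was not tested.

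Hes1 was higher with dmPGE2 in all 8 mice, from a low vehicle level on date 1 and from a much higher one on date 2. On date 1 the young mice went from 13.4 to 421 CPM (mouse 477) and from 8.66 to 341 CPM (478), and the old mice from 34.9 to 960 CPM (479) and from 30.5 to 946 CPM (480). On date 2 the young mice went from 127 to 473 CPM (483) and from 140 to 342 CPM (484), and the old mice from 326 to 721 CPM (485) and from 187 to 461 CPM (486). The dmPGE2 libraries all lay above the vehicle libraries, with no overlap over the 16. The rise was 27.5- to 39.4-fold on date 1 and 2.21- to 3.71-fold on date 2, and the fitted log2 changes were 5.0 ± 0.11 (SE) and 1.41 ± 0.09. The dates stood apart on the vehicle side: vehicle libraries averaged 21.9 ± 12.8 CPM (SD, n = 4) on date 1 and 195 ± 90.8 CPM on date 2, whereas dmPGE2 libraries averaged 667 ± 332 and 499 ± 159 CPM and overlapped. In absolute terms the rise was 332 to 925 CPM a mouse on date 1 and 202 to 396 CPM on date 2. By fitted log2 rise Hes1 ranked 23 of 13942 tested genes on date 1 and 278 on date 2.

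**Figure D1:**
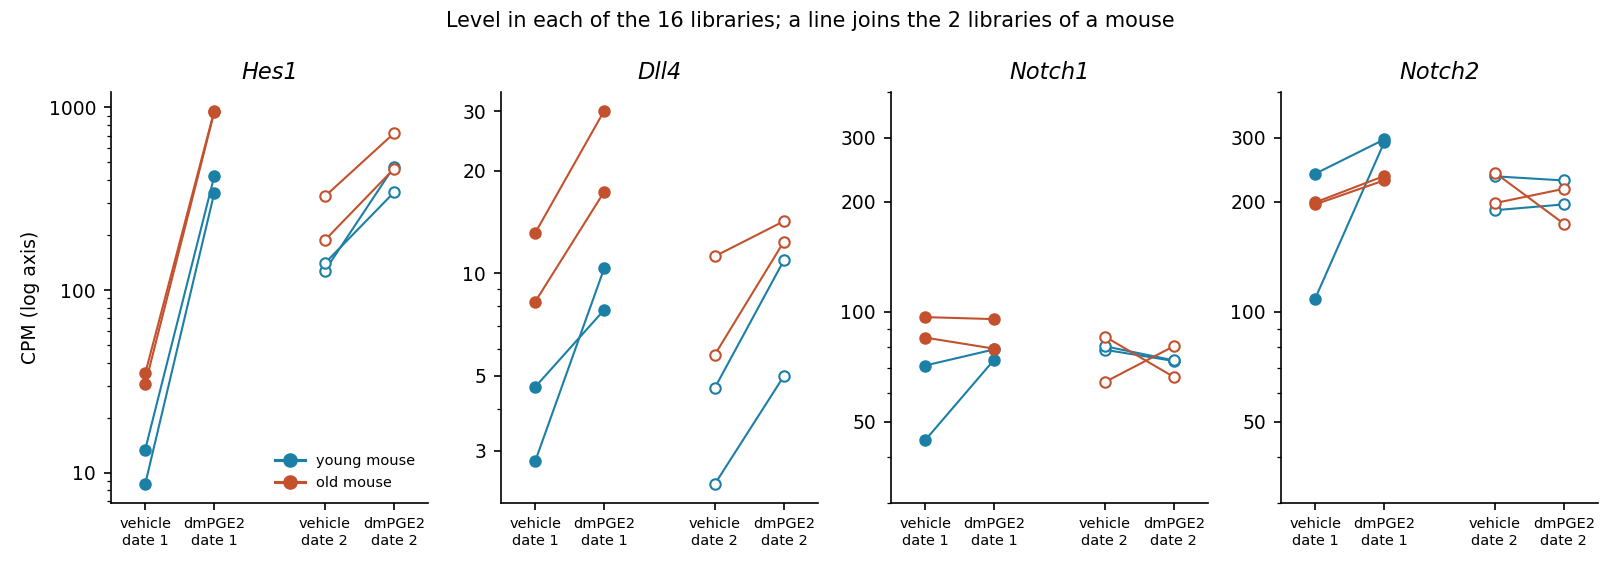
Level of each gene in the 16 libraries in CPM on a log axis, with a line joining the 2 libraries of a mouse (blue young, red old, filled circles date 1, open circles date 2). Hes1 vehicle libraries lie at 8.66 to 34.9 CPM on date 1 and at 127 to 326 CPM on date 2, while all Dll4 lines slope upward and the Notch1 and Notch2 lines do not share a direction.

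Dll4, the ligand, was also higher with dmPGE2 in all 8 mice. On date 1 it went from 4.63 to 7.81 CPM (477) and 2.80 to 10.4 CPM (478) in young mice, and from 13.1 to 30.1 CPM (479) and 8.24 to 17.4 CPM (480) in old mice. On date 2 it went from 4.60 to 10.9 CPM (483) and 2.40 to 4.98 CPM (484) in young mice, and from 11.2 to 14.2 CPM (485) and 5.76 to 12.4 CPM (486) in old mice. The vehicle and dmPGE2 libraries overlapped, because an old mouse with vehicle (13.1 CPM) was above every young mouse with dmPGE2 (4.98 to 10.9 CPM). The rise was thus seen within mice, at 1.27- to 3.70-fold with a median of 2.13-fold. The fitted log2 change was 1.23 ± 0.24 (SE) on date 1 and 0.94 ± 0.25 on date 2. Dll4 vehicle levels of the dates, 7.20 ± 4.56 and 5.99 ± 3.75 CPM (SD, n = 4), differed by less than their spread. Mouse 485 had the smallest change of both genes, at 1.27-fold for Dll4 and 2.21-fold for Hes1, and the highest vehicle level of Hes1.

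Notch1, one of the 2 receptors of this table with appreciable levels, showed no change that passed the test. With vehicle it read 71.3, 44.5, 96.7 and 85.0 CPM in mice 477, 478, 479 and 480, and 78.7, 80.5, 85.6 and 64.2 CPM in mice 483, 484, 485 and 486. With dmPGE2 the same mice read 78.9, 74.0, 95.5 and 79.3 CPM, and 73.4, 73.6, 66.3 and 80.5 CPM. The vehicle library of mouse 478 stands low, the groups overlapped, and 3 of 8 mice were higher with dmPGE2. Over all mice the log2 change was 0.06 ± 0.10 (SE), with an edgeR adjusted p of 0.856 over 13942 genes, of which 0.610% were called at an adjusted p under 0.05. On date 1 it was 0.20 ± 0.12 (edgeR adjusted p = 0.544) and on date 2 -0.07 ± 0.12 (edgeR adjusted p = 0.929). Without mouse 478 the value over all mice was -0.03, and without mouse 485 that of date 2 was 0.10, neither past the test.

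Notch2 was higher with dmPGE2 in all 4 mice of date 1, without passing the test there. Vehicle libraries read 239, 109, 199 and 197 CPM in mice 477, 478, 479 and 480, and 235, 190, 241 and 198 CPM in mice 483, 484, 485 and 486. dmPGE2 libraries read 297, 291, 236 and 229 CPM, and 229, 197, 174 and 217 CPM. The date 1 mice were higher by 1.16- to 1.24-fold in 3 of them and 2.68-fold in mouse 478, whose vehicle library was the lowest of the 16. On date 2, 2 mice were higher and 2 lower. The log2 change was 0.24 ± 0.17 (SE) over all mice (edgeR adjusted p = 0.634), 0.55 ± 0.14 on date 1 (edgeR adjusted p = 0.0774) and -0.08 ± 0.14 on date 2 (edgeR adjusted p = 0.929). The date 1 value passed when that date was fitted alone (0.55, edgeR adjusted p = 0.0377) and without mouse 477 (0.83, edgeR adjusted p = 0.00200), a fit in which mouse 478 is the only young mouse of date 1. Without mouse 478 it was 0.27 (edgeR adjusted p = 0.541), and the value over all mice was 0.074 (edgeR adjusted p = 0.839). The date 2 value was 0.07 without mouse 485.

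**Figure D2:**
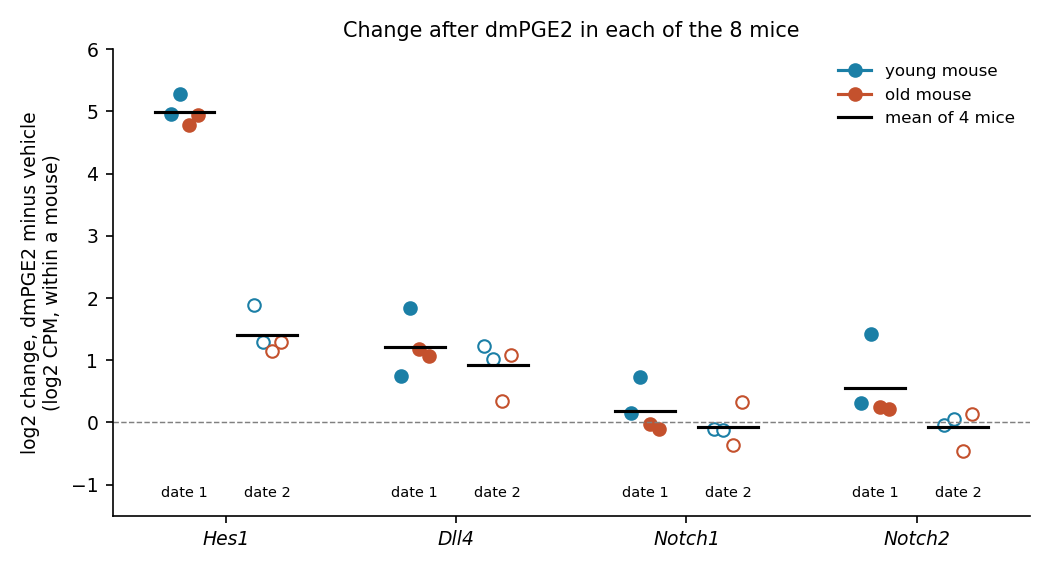
Log2 change within each mouse, dmPGE2 minus vehicle, for the 4 genes on each date (filled circles date 1, open circles date 2, black line the mean of 4 mice). Hes1 points fall in 2 separate bands, at a mean of 4.99 on date 1 and 1.41 on date 2, whereas Dll4 points of the dates overlap. Notch1 points straddle 0 on both dates. Notch2 points straddle 0 on date 2 and all lie above 0 on date 1.

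The 2 date values differed for Hes1 by -3.60 ± 0.13 (SE, date 2 minus date 1) and for Dll4 by -0.29 ± 0.34, given as descriptions. For the receptors this difference was tested: it was -0.26 ± 0.17 for Notch1 (edgeR adjusted p = 0.700) and -0.63 ± 0.20 for Notch2 (edgeR adjusted p = 0.313). The Notch2 difference was -0.91 without mouse 477 (edgeR adjusted p = 0.0121) and -0.35 without mouse 478 (edgeR adjusted p = 0.739). Of all 13942 genes, 1.08% differed between the dates in their response. Vehicle levels of the receptors did not differ past the test, with log2 differences of 0.08 ± 0.19 for Notch1 (edgeR adjusted p = 0.825) and 0.22 ± 0.20 for Notch2 (edgeR adjusted p = 0.564), where 11.0% of 13369 genes differed. Without mouse 478 the Notch1 difference was -0.12.

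The other genes of the pathway were read from lists of ligands, receptors, processing enzymes, nuclear proteins, regulators and known targets, 80 genes in the table beside Hes1 and Dll4, of which 75 were tested. On date 1, where 2.93% of all genes were called, 6 of the 75 rose and none fell, and the median log2 change was 0.07 against -0.0039 over all genes tested. On date 2, where 0.387% were called, 3 of 75 rose and none fell, with a median of 0.000020 against -0.0015. Over all mice 1 of 75 was called higher (Jag2) and none lower, with a median of 0.04 against -0.0039. These 3 comparisons share libraries, so their counts are not independent of each other. The fit over all mice has no dmPGE2 term by date. Hey1, Nrarp and Cdkn1a were not called in it, though each was higher in all 4 mice of each date. With dmPGE2 terms by date its count was 4, and 347 of all genes were called in place of 85. Fitted on date 1 alone the count was 10, and over all mice it was 0 when mouse 477, 478, 479 or 480 was left out.

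Among the effectors, Hey1, a repressor of the same family as Hes1, rose on both dates. It went from 0.473 ± 0.281 to 42.6 ± 14.2 CPM on date 1 (SD, n = 4), the vehicle value being close to the 0.152 to 0.232 CPM that a count of 0 allows in these libraries. On date 2 it went from 9.91 ± 2.63 to 31.6 ± 9.72 CPM. Its log2 changes were 6.46 ± 0.29 (SE, edgeR adjusted p = 3.89e-08) and 1.66 ± 0.21 (edgeR adjusted p = 0.00366), and its groups did not overlap on either date. Like Hes1, it stood higher with vehicle on date 2, by 4.37 ± 0.46 on the log2 scale (edgeR adjusted p = 0.000113), and its response differed between the dates by -4.80 ± 0.35 (edgeR adjusted p = 1.05e-05). Hes5, the other Hes gene often used as a readout of Notch, was low and was not called, at 3.46 and 1.93 CPM (vehicle and dmPGE2 means) on date 1 and 3.03 and 2.30 CPM on date 2. Its level was lower with dmPGE2 in all 4 mice of date 1 and in 3 of 4 on date 2.

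Nrarp, whose promoter is printed above, followed the same pattern. It went from 24.6 ± 7.40 to 151 ± 46 CPM on date 1 (SD, n = 4) and from 82.9 ± 24.4 to 124 ± 28.0 CPM on date 2, and rose in all 4 mice each time. The log2 changes were 2.62 ± 0.10 (SE, edgeR adjusted p = 1.06e-08) and 0.61 ± 0.09 (edgeR adjusted p = 0.0140), and they differed by -2.02 ± 0.13 (edgeR adjusted p = 4.61e-06). Cdkn1a, the cell cycle inhibitor p21, went from 15.2 ± 8.39 to 228 ± 106 CPM and from 95.7 ± 32.2 to 193 ± 34.9 CPM on the same dates. Its log2 changes were 3.98 ± 0.11 (SE, edgeR adjusted p = 5.16e-10) and 1.06 ± 0.09 (edgeR adjusted p = 0.000311), with a difference of -2.92 ± 0.14 (edgeR adjusted p = 2.12e-07). Cdkn1a is known to respond to many signals besides Notch.

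Among the ligands, Jag2 rose in all 8 mice together with Dll4. Its log2 change was 0.52 ± 0.08 (SE) over all mice (edgeR adjusted p = 0.0183), 0.65 ± 0.11 on date 1 (edgeR adjusted p = 0.00724) and 0.39 ± 0.11 on date 2 (edgeR adjusted p = 0.325). Jag1 and Dll1 were not called, at 0.84 ± 0.32 and 1.02 ± 0.52 on date 1 and -0.24 ± 0.33 and -0.08 ± 0.52 on date 2. None of the 4 receptors, the 9 cleavage genes or the 14 corepressors was called in any of these 3 comparisons. The same held for the 9 genes of the nuclear activation complex, Rbpj among them (0.11 ± 0.08 over all mice). The scarce Notch4 was higher in all 4 mice of date 2 (means of 1.02 CPM with vehicle and 2.64 CPM with dmPGE2). On date 1 it was higher in 2 mice and lower in 2. On date 1, Neurl3, of a family of ubiquitin ligases that act on ligands, rose by 0.37 ± 0.06 (edgeR adjusted p = 0.00250) and Gata2, a stem cell transcription factor, by 0.20 ± 0.05 (edgeR adjusted p = 0.0417). On date 2 the Neurl3 value was -0.11 ± 0.06, with 1 of 4 mice higher, and the difference between dates was -0.48 ± 0.08 (edgeR adjusted p = 0.0111). Myc, another known target, was not called, at -0.02 ± 0.07 and -0.14 ± 0.07.

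**Figure D3:**
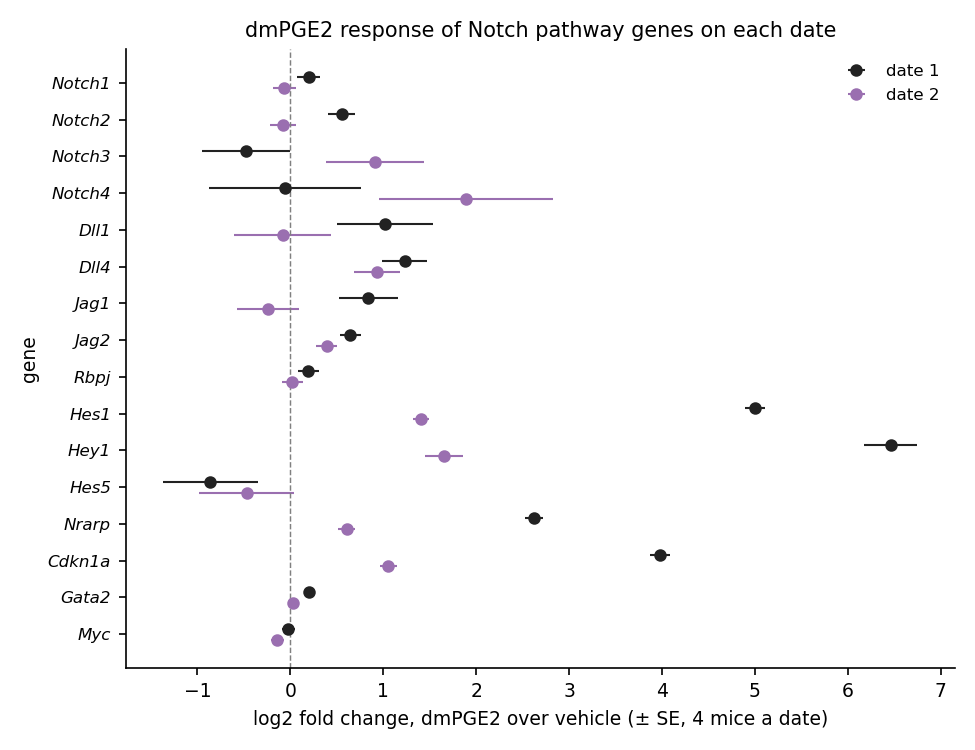
Fitted log2 fold change with dmPGE2 on each date for 16 Notch pathway genes, Hes1 and Dll4 shown as descriptions; bars are the SE of a fit with 4 mice a date. Hes1, Hey1, Nrarp and Cdkn1a lie far to the right on date 1 and closer to 0 on date 2. Notch1 lies near 0 on both dates and Notch2 on date 2, while Notch2 on date 1 lies at 0.55 ± 0.14. The scarce Notch3 and Notch4 have wide bars.

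With vehicle, the 74 tested pathway genes other than Hes1 and Dll4 included 7 that were higher on date 2 and 3 that were lower, 13.5% against 11.0% of all genes. The 7 included Nrarp and Cdkn1a (1.76 ± 0.12 and 2.78 ± 0.21 on the log2 scale, edgeR adjusted p = 4.43e-06 and 1.00e-05) beside Hey1. Genes of T cells were among them too: Cd3e, a subunit of the T cell receptor complex, read at most 0.164 CPM on date 1 and 6.26 to 15.5 CPM on date 2, and Tcf7, a T cell transcription factor, averaged 0.802 ± 0.828 and 11.3 ± 2.44 CPM with vehicle (SD, n = 4). Dtx4, a Deltex regulator, averaged 4.12 ± 2.71 and 15.7 ± 4.42 CPM. Dtx1, its relative, read at most 0.229 CPM on date 1 and averaged 2.08 ± 1.97 CPM on date 2. The lower ones included Tle2, a corepressor, at -0.78 ± 0.18 and Neurl1b, a ubiquitin ligase of ligands, at -0.76 ± 0.22. Cd3e and Tcf7 belong to the T cell marker list given above as well. The part of other cell types in these date differences was not tested.

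Age was not used in choosing Hes1 or Dll4, so it was tested for all 4 genes. Cells of old mice held more Hes1 and more Dll4 than those of young mice, with and without dmPGE2, while neither receptor passed the test. With vehicle, Hes1 averaged 11.0 CPM in young and 32.7 CPM in old mice on date 1 and 134 and 257 CPM on date 2, so the old mice stood 2.97 and 1.92 times higher. With dmPGE2 the averages were 381 and 953 CPM on date 1 and 408 and 591 CPM on date 2, 2.5 and 1.45 times higher. Within a date both old mice lay above both young mice, except with dmPGE2 on date 2, where old mouse 486 (461 CPM) fell below young mouse 483 (473 CPM). In a fit with age and date, the log2 difference was 1.20 ± 0.20 (SE) with vehicle (edgeR adjusted p = 0.00242) and 0.92 ± 0.19 with dmPGE2 (edgeR adjusted p = 0.0126). Called genes made up 17.3% of 13369 with vehicle (8.47% higher in old) and 14.3% of 13279 with dmPGE2 (7.85% higher in old).

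Over both dates, the 4 Hes1 group means ran from old dmPGE2 (772 ± 234 CPM, SD, n = 4) through young dmPGE2 (394 ± 64.4) and old vehicle (145 ± 141) to young vehicle (72.4 ± 71.1). The ranges of young and old mice overlapped within each treatment, since the dates differ. Without a date term the vehicle difference was 0.97 and did not pass (edgeR adjusted p = 0.692). On date 2 alone the age term was 0.91 with vehicle (edgeR adjusted p = 0.0506) and 0.53 with dmPGE2 (edgeR adjusted p = 0.152), and without mouse 485 the dmPGE2 value was 0.89 (edgeR adjusted p = 0.0698).

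Dll4 with vehicle averaged 3.71 CPM in young and 10.7 CPM in old mice on date 1 and 3.50 and 8.49 CPM on date 2, 2.88 and 2.43 times higher in old. With dmPGE2 it averaged 9.08 and 23.7 CPM on date 1 and 7.95 and 13.3 CPM on date 2, 2.61 and 1.67 times higher. In both treatments and on both dates the old and the young mice did not overlap. Over both dates the order was old dmPGE2 (18.5 ± 7.98 CPM, SD, n = 4), old vehicle (9.59 ± 3.25), young dmPGE2 (8.52 ± 2.72) and young vehicle (3.61 ± 1.18). The middle pair, old cells without dmPGE2 and young cells with it, differed by less than its spread. The log2 difference with age was 1.38 ± 0.35 (SE) with vehicle (edgeR adjusted p = 0.0202) and 1.06 ± 0.29 with dmPGE2 (edgeR adjusted p = 0.0317).

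These Dll4 calls rest on few mice. The vehicle call was lost without mouse 478, 479 or 485 (1.23, 1.20 and 1.19, edgeR adjusted p = 0.0633, 0.0761 and 0.0831), and the dmPGE2 call without mouse 477, 478, 479, 480, 484 or 485 (0.82 to 1.16, edgeR adjusted p = 0.0520 to 0.112) or without a date term (1.11, edgeR adjusted p = 0.0808), the direction being kept. On single dates the age term was 1.51 and 1.24 with vehicle (edgeR adjusted p = 0.118 and 0.177) and 1.37 and 0.74 with dmPGE2 (edgeR adjusted p = 0.0826 and 0.297).

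Notch1 differed with age by 0.26 ± 0.19 (SE) with vehicle (edgeR adjusted p = 0.377) and 0.09 ± 0.10 with dmPGE2 (edgeR adjusted p = 0.622). On date 1 the old mice lay above the young ones in both treatments (90.9 against 57.9 CPM and 87.4 against 76.5 CPM), and on date 2 they overlapped (74.9 against 79.6 CPM and 73.4 against 73.5 CPM). Notch2 differed by 0.10 ± 0.20 with vehicle (edgeR adjusted p = 0.794) and -0.24 ± 0.09 with dmPGE2 (edgeR adjusted p = 0.0952), the latter called without mouse 486 (-0.32, edgeR adjusted p = 0.0123). With vehicle and without mouse 478 its value was -0.10. The old mice were lower in Notch2 with dmPGE2 on date 1 without overlap (232 against 294 CPM), and overlapped the young ones on date 2 (196 against 213 CPM).

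The response itself was not shown to differ with age. The log2 change of old minus that of young mice was -0.24 ± 1.65 (SE) for Hes1 (edgeR adjusted p = 0.991), -0.30 ± 0.33 for Dll4 (edgeR adjusted p = 0.904), -0.19 ± 0.20 for Notch1 (edgeR adjusted p = 0.887) and -0.39 ± 0.34 for Notch2 (edgeR adjusted p = 0.872). With dmPGE2 terms for each date the SE of the Hes1 value shrank and it was -0.31 ± 0.13 (edgeR adjusted p = 0.564). edgeR called 0 genes of the whole table in this comparison (0%), with 955 at an unadjusted p under 0.05, and DESeq2 called 17. None of the 77 tested pathway genes was called by either tool, and 4 had an unadjusted edgeR p under 0.05. In CPM, Hes1 rose by 202 to 407 in young and by 274 to 925 in old mice.

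Other ligands were higher in old mice as well. With vehicle 4 of 5 tested ligands were called higher, where 8.47% of all genes were, and Dll1 was not called (1.76 ± 0.64, SE, edgeR adjusted p = 0.0832). The 4 were Dll4, Jag1 (1.61 ± 0.25, edgeR adjusted p = 0.00143), Jag2 (0.69 ± 0.15, edgeR adjusted p = 0.0101) and Dlk1, a divergent Delta-like protein (1.24 ± 0.29, edgeR adjusted p = 0.0150). With dmPGE2 all 5 tested ligands were higher, where 7.85% of all genes were, with Dll1 at 1.84 ± 0.33 (edgeR adjusted p = 0.00445), Jag1 at 1.77 ± 0.39 (edgeR adjusted p = 0.0120), Jag2 at 0.56 ± 0.11 (edgeR adjusted p = 0.00703) and Dlk1 at 1.21 ± 0.25 (edgeR adjusted p = 0.00823). The median ligand difference was 1.38 with vehicle and 1.21 with dmPGE2, against -0.0012 and -0.0062 over all genes tested. None of the 4 receptors was called. In the groups as labelled, Jag1 averaged 4.03 ± 1.39 CPM in young and 12.2 ± 2.02 CPM in old vehicle cells (SD, n = 4), and Jag2 23.9 ± 4.85 and 39.2 ± 2.39 CPM.

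Of 76 tested pathway genes, 14 were higher and 5 lower in old mice with vehicle (25.0%), and 12 were higher and 1 lower with dmPGE2 (17.1%), shares to be read against the 17.3% and 14.3% of all genes. The whole pathway median was 0.13 and 0.07. Downstream, Nrarp (0.69 ± 0.12, SE, edgeR adjusted p = 0.00268) was higher in old mice with vehicle and was 0.40 ± 0.18 with dmPGE2 (edgeR adjusted p = 0.171). Cdkn1a (1.03 ± 0.20 and 0.78 ± 0.16, edgeR adjusted p = 0.00618 and 0.00907), Gata3, a T cell and stem cell transcription factor (0.65 ± 0.11 and 0.73 ± 0.12, edgeR adjusted p = 0.00250 and 0.00312), and Gata2 (0.42 ± 0.08 and 0.45 ± 0.08, edgeR adjusted p = 0.00545 and 0.00396) were higher in both treatments. Hey1 was not called (0.12 ± 0.42 and 0.06 ± 0.28). The 5 lower with vehicle were Lfng, which adds sugars to the receptor, the corepressors Ctbp1, Hdac2 and Tle5, and Hes6, at -0.37 to -0.23, and the 1 lower with dmPGE2 was the corepressor Tle4 at -0.36 ± 0.09. The counts fell to 11 and 12 with vehicle without mouse 480 or 485, and to 8 with dmPGE2 without mouse 484 or 485.

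Several genes of a list of endothelial markers were also higher in old mice. Whether their reads came from endothelial cells or from the stem cells themselves was not tested. Summed levels of 15 endothelial markers with vehicle were 1456 to 1500 CPM in young and 2053 to 2402 CPM in old mice on date 1 and 1044 to 1081 and 1736 to 2088 CPM on date 2, and with dmPGE2 they were 1514 to 1530 and 2085 to 2332 CPM, and 1055 to 1097 and 1725 to 1975 CPM. Vwf, which stem cells with a platelet bias express too, took much of this, at 95.4 to 200 CPM in young and 425 to 767 CPM in old mice with vehicle. Without Vwf the vehicle sums were 1280 to 1301 and 1450 to 1635 CPM on date 1, and 949 to 969 and 1311 to 1346 CPM on date 2. In each treatment the mean of 10 of the 15 genes was higher in old mice on both dates, that of 1 was lower on both and those of 4 were mixed. Egfl7 was among the mixed ones with vehicle (100.4 and 92.0 CPM). The share of all genes with a higher mean in old mice on both dates was not counted. Cdh5, which defines endothelium, read at most 0.609 CPM on date 1, with 0 in 5 of 8 libraries, and at most 2.66 CPM on date 2. With vehicle it was the 1 lower gene, at 0.859 CPM in young and 0.458 CPM in old mice. Flt1, mixed in both treatments, read at most 1.51 CPM. Plvap, higher in old mice with vehicle and mixed with dmPGE2, read at most 4.85 CPM. Eng, Tie1 and Esam, higher in old mice in both treatments, averaged 207 to 341 CPM with vehicle. Other lists moved with age too. With vehicle on date 2, neutrophil sums were 1359 to 1502 CPM in young and 787 to 813 CPM in old mice, myeloid progenitor sums 2479 to 3632 and 1525 to 1719 CPM, and erythroid sums 3111 to 3296 and 2136 to 2198 CPM. On date 1 with vehicle, myeloid progenitor sums were higher in old mice (182 to 205 and 330 to 349 CPM). Prtn3 took most of these sums, at 114 to 296 CPM, while Mpo read at most 9.58 CPM. Stem cell sums were higher in old mice on both dates. The part of these cells in the Hes1 and Dll4 differences was not tested.

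**Figure D4:**
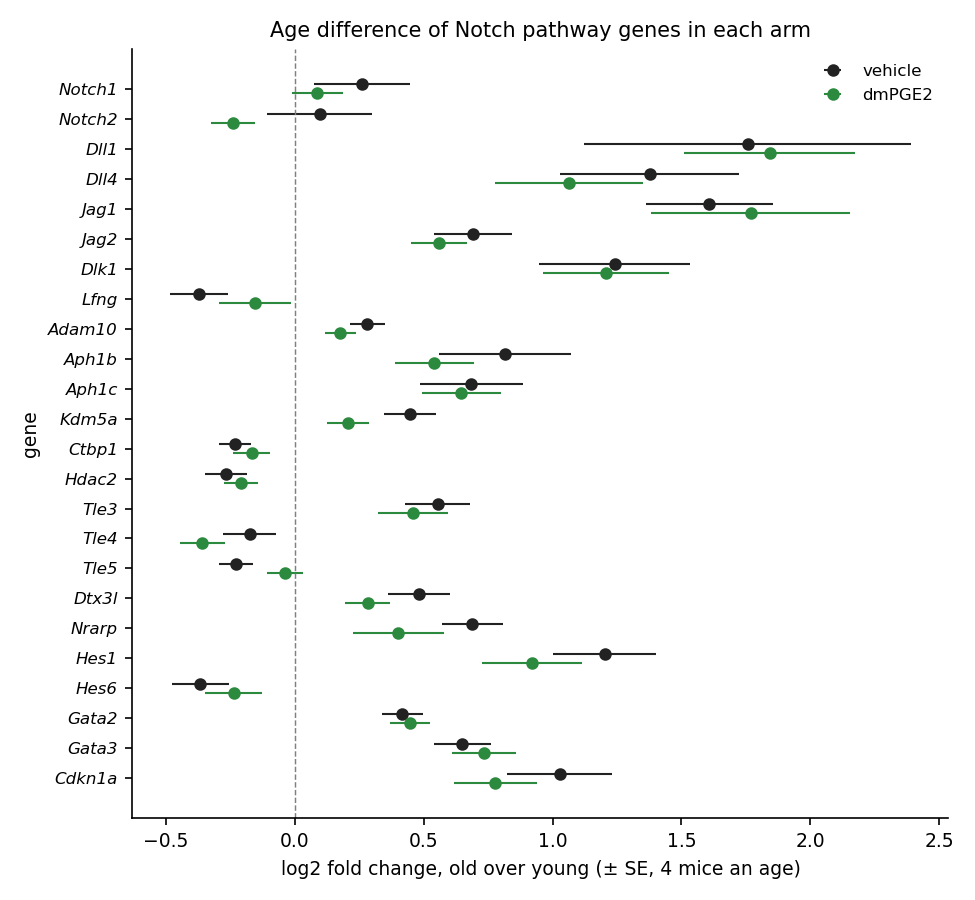
Fitted log2 fold change of old over young mice with vehicle (black) and with dmPGE2 (green) for Notch1, Notch2 and the 22 pathway genes called in either treatment; bars are the SE, with 4 mice an age. Dll4, the other ligands and Hes1 lie to the right of 0 in both treatments, and the receptors lie close to 0.

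Per kilobase of exon, Notch2 was the most abundant receptor, at a mean of 20.7 CPM per kilobase over the 16 libraries, followed by Notch1 (8.09), Notch3 (0.494) and Notch4 (0.255). The ranges of Notch2 (10.3 to 28.2) and Notch1 (4.69 to 10.2) did not overlap, and the vehicle library of mouse 478 was the lowest in both. Among the ligands Jag2 led (9.42), then Dll4 (2.91), Dlk1 (2.48), Jag1 (1.73) and Dll1 (1.52), and the last 4 overlapped between libraries. Dll4 reached 1.04 ± 0.341 CPM per kilobase in young vehicle and 5.37 ± 2.31 in old dmPGE2 cells (SD, n = 4). Hes1 stood at 74.8 ± 76.1 with vehicle and 402 ± 177 with dmPGE2 (SD, n = 8). The vehicle value joins 15.1 ± 8.82 on date 1 and 135 ± 62.6 on date 2 (SD, n = 4). Notch2 stood at 17.7 ± 5.23 in the date 1 vehicle libraries. There Hes1 was below Notch2 in young mice 477 and 478 (9.23 and 5.97 against 22.7 and 10.3). It was above Notch2 in old mice 479 and 480 (24.1 and 21.0 against 19.0 and 18.7). Rbpj, the DNA-binding partner of the receptors, stood at 8.96.

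The genes whose log2 levels ran most like those of Hes1 over the 16 libraries were Fosl2, Cdkn1a, Nrarp, Klf4 and Nr4a3, with Pearson r of 0.984 to 0.993 among 10646 genes compared. For the change within the 8 mice they were Fosl2, Nr4a1, Sik1, Mcl1 and Egr3 (r of 0.987 to 0.998). Those most like Dll4 were Hivep1, Rnf125, Tgoln1, Rnf217 and Jag2 by level (r of 0.880 to 0.917) and Metap1, Gtf2a1, Nol9, Mef2a and Snx30 by change (r of 0.936 to 0.958). The 2 lists of each gene share mice, dates and depth, and no Hes1 neighbour was a Dll4 neighbour. Hes1 and Dll4 ran with each other at an r of 0.615 over 16 libraries and 0.442 over 8 changes. The change of Dll4 ran closer to that of Notch2 (0.850) and Notch1 (0.772), in a set of 8 points that includes mice 478 and 485 at its ends. Notch1 was most like Dnajb14, Tmf1, Cds2, Zscan29 and Alkbh5 (r of 0.825 to 0.867), and Notch2 most like Uhmk1, Syne3, Atm, Macf1 and Phf3 (0.849 to 0.899), none of which is a Notch pathway gene of the lists. All these values describe points that share libraries and dates, and carry no test.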

How the data were processed

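The deposited table holds raw read counts per gene for 16 libraries of sorted stem cells. Per the submitters' processing notes, reads were aligned to mm10 with STAR 2.5.2b and counted with featureCounts of Subread 1.5.1 (strand setting and annotation: not given in the sources used here). Counts enter the fits as deposited. edgeR 4.0.16 (R 4.3.3) ran quasi-likelihood tests with TMM scaling, robust fits and its default low-count filter, with Benjamini-Hochberg adjustment over all genes tested at 0.05. dmPGE2 comparisons used mouse as a block, since each mouse gave both libraries per the labels. Deviations of the 2 libraries of a mouse from their group means correlated at 0.510 to 0.732. Those means pool the dates, which the 2 libraries share, so these values cannot tell mouse from date. Age comparisons used age and date. DESeq2 1.42.0 and the other alternatives are in the closing section. CPM uses TMM library sizes, and log2 CPM a prior count of 2. The floor for a count of 0 is 3 counts and covers counting error only. Nothing says whether mice were littermates.

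The members and gene lists were chosen with earlier results of these data known. Named by rule were Hes1, Dll4, Notch1, Notch2, 12 other Notch genes, up to 6 called pathway genes a direction by smallest p, and the 5 genes most like each member among those with a mean log2 CPM of at least 2. Tle5 is listed as Aes. One called pathway gene is not reported here by name. The test was run on simulated counts first.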

Additional observations from a re-analysis of the deposited data

Results flagged for a closer look

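In groups of 4 samples, the highest or lowest value was compared with the others by Dixon's ratio for Hes1, Dll4, Notch1 and Notch2. Of 32 groups, 5 stood apart. Chance marks about 1 in 20 of independent groups. These groups share libraries and mice, so the 5 cannot be set against that rate. Notch1 with dmPGE2 stood high in young mouse 477, at 78.9 CPM against 73.4 to 74.0 CPM in the other young mice. Notch2 with vehicle stood high in old mouse 485, at 241 CPM against 197 to 199 CPM. The log2 change of Notch2 stood high in mouse 478 among those of date 1 (1.42) and low in mouse 485 among old mice (-0.46). The latter change includes the Notch2 vehicle library of mouse 485 just named. The log2 change of Dll4 stood low in mouse 485 among old mice (0.34 against 1.07 to 1.19).

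The response to dmPGE2 differed between the dates by the test of the difference for 4 pathway genes, in log2 as date 2 minus date 1: Neurl3 (-0.48), Nrarp (-2.02), Hey1 (-4.80) and Cdkn1a (-2.92). The dates also differ in markers of other cell types, and the part of those was not tested.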

How the results depend on the processing

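The count of called pathway genes in the comparison of all mice went from 1 to 6 by DESeq2, 0 without the replicate block and 4 with dmPGE2 terms by date, and ranged over 0 to 1 with each mouse left out. On date 1 it went from 6 to 10 with that date fitted alone (4 to 7 with a mouse left out). Old against young, it went from 19 with vehicle to 6 without a date term and to 6 and 7 for the age term of date 1 and of date 2 (11 to 19 with a mouse left out), and from 13 with dmPGE2 to 6, 6 and 5 (8 to 17). The age terms of single dates were chosen after seeing the data. The cause was not tested. With a mouse left out, the direction turned for Notch1 over all mice (-0.032 to 0.11, lowest without 478), Notch1 and Notch2 on date 2 (-0.24 to 0.10 and -0.23 to 0.066, highest without 485), Notch2 with age and vehicle (-0.096 to 0.35, lowest without 478), Notch1 between dates with vehicle (-0.12 to 0.24, lowest without 478), and Hes1 in the age difference of the response (-1.01 to 0.52, above 0 at 0.40, 0.45, 0.52 and 0.49 without 477, 478, 485 and 486). In the age term of date 2, Notch1 was -0.12 with vehicle and -0.0042 with dmPGE2. None of these Notch1, Notch2 or Hes1 values passed the test before or after. Leaving out the replicate block changed no other call printed for Hes1, Dll4, Notch1 or Notch2. A mouse left out leaves 1 mouse of its age on its date, assumed to vary like the rest. DESeq2 gave no adjusted p for Dll4 in the age difference of the response, so that value is left out.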
